A study of Homo sapiens with 24 samples.

Results

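Chromosome 19 zinc finger gene mRNAs are the transcripts described here. They are the protein-coding genes of human chromosome 19 whose symbol is ZNF followed by a number, chosen by a mean level of at least 1 CPM (counts per 1000000 gene reads) over the 2 siControl libraries collected without actinomycin D. The level cut used no other library, and the gene family itself was picked with earlier results of these data known. Of the 246 chromosome 19 genes with such a symbol, 191 reached that minimum and are the members. All 191 were among the 13136 genes that passed the filter of the tests, out of 58721 gene rows in the count tables. The other 55 genes lay below the minimum, and 9 of the 246 had no read in any of the 24 libraries. Just inside the minimum stood ZNF490 at 1.008 CPM and ZNF547 at 1.06 CPM, and just outside it ZNF837 at 0.9553 CPM and ZNF284 at 0.836 CPM. In the 6 knockdown libraries at 0 h, which the choice did not use, 187 of the 191 had a mean of at least 1 CPM, and 1 gene that was not a member, ZNF285, did so too (0.8284 CPM in siControl, 1.163 CPM in the knockdowns).

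The tandem C2H2 zinc finger proteins form the largest family of human transcription factors, and chromosome 19 carries most of its long gene clusters. Each finger folds around a zinc ion and reads a few bases of DNA, and successive fingers are joined by a short conserved linker. Most members carry an N-terminal KRAB domain, which recruits the corepressor TRIM28 (KAP1) and, through it, the histone methyltransferase SETDB1 and HP1 proteins, to silence transposable elements and other targets. Transcripts of this family are known as a class with short lifetimes.

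The libraries came from HepG2, an established human hepatoblastoma-derived cell line with hepatocyte features. Cells were transfected with an siRNA against IGF2BP1, IGF2BP2 or IGF2BP3, a family of RNA-binding proteins known to stabilise bound mRNAs, or with a non-targeting AllStars siRNA (siControl), re-seeded, and 48 h later treated with 5 µg/ml actinomycin D, an inhibitor of transcription, for 0, 3 or 6 h before collection. The 4 siRNAs and 3 times gave 12 groups of 2 libraries. ERCC synthetic RNAs were added in proportion to total RNA before poly(A) selection. The study proposes that IGF2BP1 and IGF2BP3 can also promote decay of mRNAs that carry internal N7-methylguanosine. The comparisons asked how fast each mRNA disappears once transcription is blocked and whether loss of an IGF2BP protein alters that.

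All groups share the transfection, the cell line and the reagent, and the 0 h groups differ from the rest in receiving no actinomycin D before collection. No stable line or clone was involved, and the knockdowns are transient and partial. The study calls the 2 libraries of a group independent replicates, while the labels do not say whether they came from separate cultures. The p-values therefore measure the spread between these samples, which may be technical. In the slope tests described below, that spread also holds departure from a straight line over time. Libraries held 31843504 to 74252494 gene reads and 50889 to 119088 ERCC reads. The targeted mRNAs stood at 21.12% (IGF2BP1), 26.19% (IGF2BP2) and 35.53% (IGF2BP3) of the siControl level at 0 h. All 9 hepatocyte and HepG2 markers checked were present in siControl at 0 h (49.93 to 34160 CPM), and 6 markers of blood, endothelial and stromal cells lay at 0 to 0.9055 CPM, PECAM1 being the highest and PTPRC, CD3E, COL1A2 and DCN at 0. In bulk libraries, fewer cells and less RNA per cell cannot be told apart. Because the spike-in was added per total RNA and not per cell, values on the ERCC scale are levels relative to total RNA.

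The 191 members were minor transcripts. Together they took 16663 to 137821 reads per library. Their share of gene reads was 0.1786% in siControl at 0 h and 0.184%, 0.181% and 0.1858% in the siIGF2BP1, siIGF2BP2 and siIGF2BP3 cells. After 3 h of actinomycin D the shares were 0.06342%, 0.06634%, 0.06844% and 0.07008% in the same order, and after 6 h they were 0.05183%, 0.05215%, 0.05494% and 0.05322%. The median member count ranged from 324 to 444 reads across the 4 conditions at 0 h and from 46.5 to 78 reads at 6 h, so values of single members at 6 h rest on few reads. 92 of the 191 kept at least 1 CPM in all 24 libraries.

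Sequence features set the members apart from other coding genes, with large variation among themselves. In the translated canonical GENCODE transcripts, a search found a median of 12 zinc fingers per member against 9 in 204 expressed ZNF genes on other chromosomes, and the count ran from 1 (ZNF428) to 32 (ZNF91). A KRAB motif was found in 160 members and not in 31. G or C at the third codon position (GC3) had a median of 39.58% among members, 48.16% among ZNF genes elsewhere and 58.2% over 11385 tested coding genes. Median transcript length was 4066 bases against 3348 bases over the same coding genes.

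The linker between fingers recurs across these mRNAs, and it is shown for members at the extremes of the results. In 165 members at least 1 copy was found of the codons for histidine followed by threonine or serine and then glycine, glutamate, lysine and proline, 1187 copies in all, encoded by 237 different 18-base sequences. The commonest versions, catACTGGAGAGAAACCT, cacACTGGAGAGAAACCC and catACTGGAGAGAAACCC, occurred in 47 (24.6%), 44 (23.0%) and 43 (22.5%) members. In every one of the 165 the first copy lay in the last exon. The first copy of each gene below is given 5′ to 3′ on the coding strand, with GRCh38 (hg38) positions on GENCODE 44 exons. Lower case at the start is the histidine codon, capitals mark the other linker codons, and lower case at the end is the next pair of codons. The label of a steady rate means only that slowing of the loss was not called.
ZNF14, lost fast, exon 4 of 4, minus strand, chr19:19712525-19712548: cacACTGGAGAGAAACCCtatgaa
ZNF57, lost fast, plus strand, chr19:2917441-2917464: cacACTGGAGAGAAGCCCtataaa
ZNF91, most fingers, minus strand, chr19:23362094-23362117: cacACTGGAGAGAAACCCtacaaa
ZNF480, higher after siIGF2BP1, plus strand, chr19:52322007-52322030: catACTGGAGAGAAACCTtacaaa
ZNF714, higher in each knockdown, plus strand, chr19:21117079-21117102: catACTGGAGAGAAACCTttcaaa
ZNF324B, lower after siIGF2BP1, plus strand, chr19:58456115-58456138: cacACAGGCGAGAAGCCCttcgta
ZNF787, lost at a steady rate, minus strand, chr19:56088803-56088826: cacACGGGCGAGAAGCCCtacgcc
ZNF358, not lost, exon 2 of 2, plus strand, chr19:7519759-7519782: cacAGCGGCGAGAAGCCGtaccgc
ZNF14, among the fastest lost, and ZNF91, among the slower, share all capital letters of their first linker. Among the fastest and slowest members, ZNF296, ZNF574 and ZNF428 held no match to the linker.

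Most of the RNA of the chromosome 19 ZNF genes was gone within 3 h of actinomycin D. Per member, the level left after 3 h, scaled to the ERCC reads, had a median of 22.97% of the 0 h level in siControl, with quartiles of 15.59% and 36.76%. In siIGF2BP1, siIGF2BP2 and siIGF2BP3 cells the medians were 25.08%, 24.78% and 24.99%. After 6 h the medians were 14.95% in siControl and 16.41%, 17.91% and 17.13% in the knockdowns. Fewer than 25% of the starting level was left at 3 h for 101, 94, 97 and 96 members, and 81 of these were shared by all 4 conditions. Summed over members, 29.73% of ERCC-scaled reads were left at 3 h and 19.83% at 6 h in siControl, against 83.75% and 68.31% of all gene reads. The knockdowns were close to this, with 30.18% to 32.3% of member reads left at 3 h and 21.9% to 23.01% at 6 h.

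**Figure D1:**
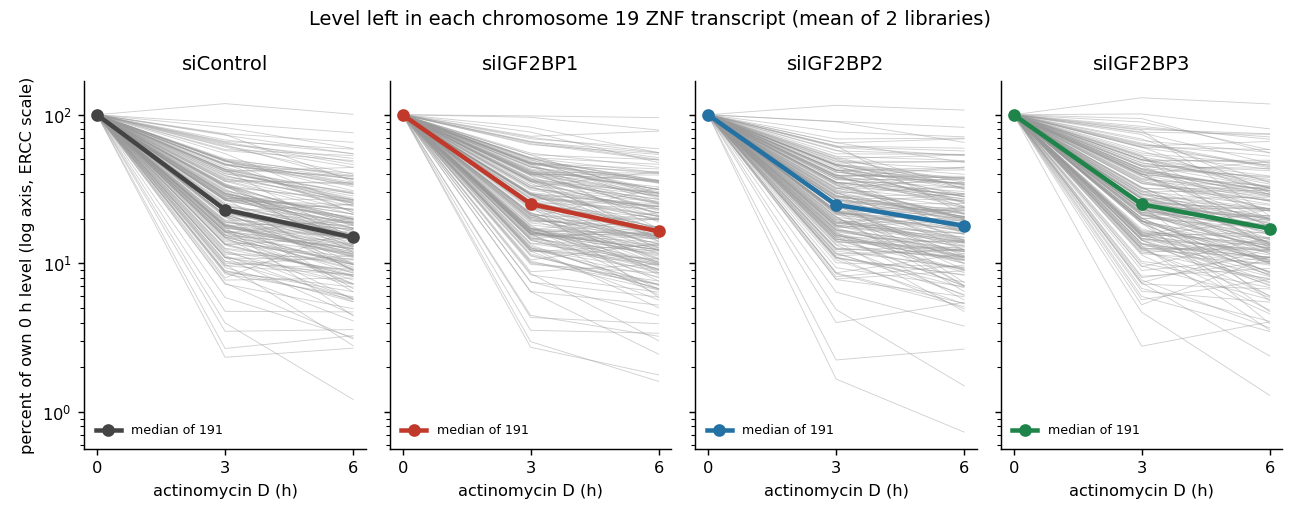
Percent of its own 0 h level left in each of the 191 members (grey lines, mean of 2 libraries on the ERCC scale, log axis) against hours of actinomycin D in the 4 conditions, with the median as a thick line. The medians stand at 22.97% to 25.08% at 3 h and at 14.95% to 17.91% at 6 h, while single members spread from 0.733% to 130% over both times.

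A straight line fitted to log2 levels over 0, 3 and 6 h gave each gene a slope, expressed as the log2 change over 6 h. The knockdown libraries did not enter the level cut. In siIGF2BP1 cells 189 of the 191 members fell (edgeR's quasi-likelihood test, Benjamini-Hochberg adjusted p under 0.05 over all genes tested), against 69.1% of all tested genes. In siIGF2BP2 cells 189 fell against a background of 71.3%, and in siIGF2BP3 cells 189 against 67.2%. No member rose on this scale, where 2.69%, 2.44% and 2.91% of tested genes did. The median slopes were -2.66, -2.49 and -2.66 for members and -0.69, -0.71 and -0.65 for all tested genes. Under TMM scaling, which sets the typical gene near no change, 171, 174 and 171 members still fell, against 38.4%, 39.2% and 37.5% of all tested genes, with medians of -1.98, -1.82 and -2.03 and all-gene medians of -0.01, -0.04 and -0.01. In siControl, whose 0 h libraries chose the members, the values are descriptive only: the median slope was -2.77 against -0.88 for all genes, and 190 slopes passed the test against a background of 80.3%.

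Zinc finger genes elsewhere in the genome had median slopes between those of the members and of all genes, and the other genes of chromosome 19 had smaller ones than all genes. ZNF genes on other chromosomes had median slopes of -2.07, -2.06 and -2.10 in the 3 knockdowns, with 197, 199 and 199 of 204 falling. The 631 other coding genes of chromosome 19 had medians of -0.48, -0.52 and -0.43, with 375, 394 and 355 falling. Ranked by mean slope over the knockdowns, 99 members (51.8%) were among the fastest 10% of all tested genes and 166 (86.9%) among the fastest 25%. The fastest 50% held 185 members (96.9%).

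**Figure D2:**
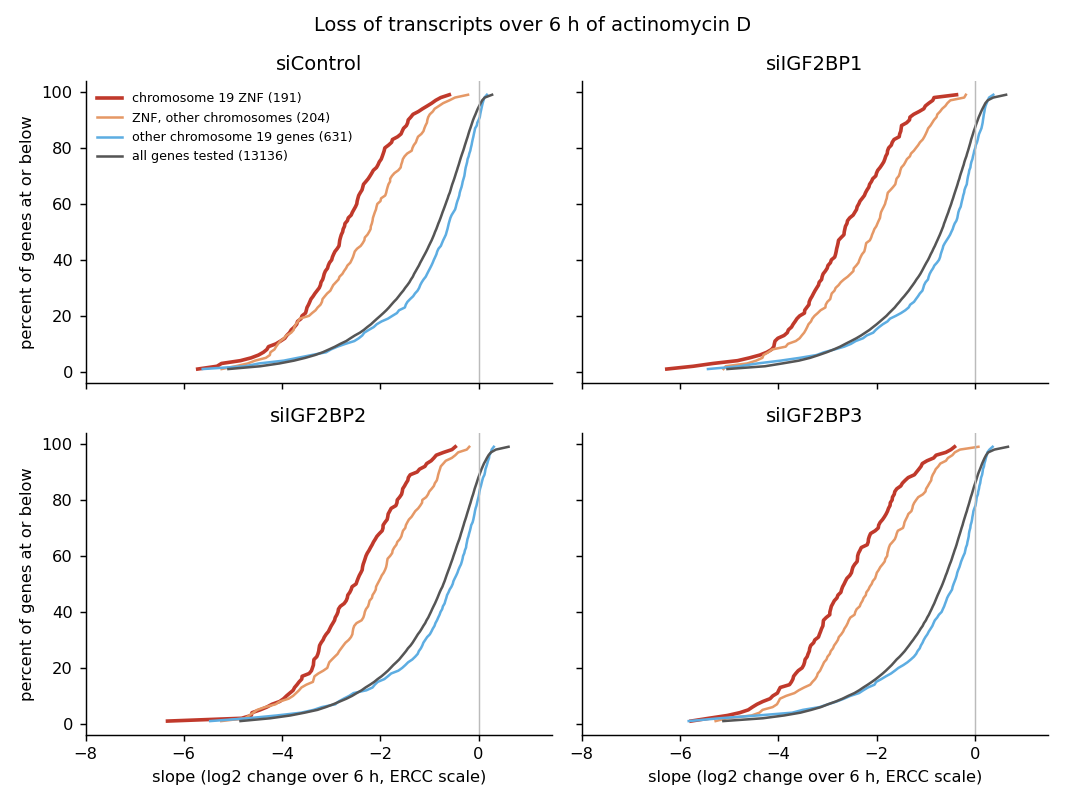
Percent of genes (y axis) with a slope at or below the value on the x axis (log2 change over 6 h, ERCC scale, percentiles 1 to 99), for the 191 members, 204 ZNF genes on other chromosomes, 631 other chromosome 19 coding genes and all 13136 genes tested, in each condition. The member curve lies farthest to the left through its middle range in every panel, with medians of -2.77, -2.66, -2.49 and -2.66, and the other chromosome 19 genes lie near the curve of all genes.

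As half-lives from the level left at 3 and at 6 h, the members' medians were 1.72 h in siControl and 1.84, 1.83 and 1.81 h in siIGF2BP1, siIGF2BP2 and siIGF2BP3 cells. These medians are over genes with a half-life, which 1 member in each of siControl, siIGF2BP2 and siIGF2BP3 lacked. Among the tested genes 1233, 1952, 1281 and 2107 had none because their level did not decline, and the rest had medians of 5.90, 6.51, 6.21 and 6.61 h. Counting genes without a half-life as the longest, the medians of all tested genes were 6.78, 8.33, 7.12 and 8.61 h and those of the members 1.73, 1.84, 1.84 and 1.81 h. ZNF genes on other chromosomes with a half-life had medians of 2.19, 2.43, 2.39 and 2.34 h. A half-life under 3 h was found for 160 members (83.8%) in siControl, where 22.7% of all genes had one. In the knockdowns it was found for 158 (82.7%), 159 (83.2%) and 153 (80.1%) members, against 19.8%, 20.5% and 18.9% of all genes. A half-life assumes a constant rate of loss, whereas a test described below called slowing for 106 to 135 members. The values therefore depend on the times sampled. No library was collected between 0 and 3 h, so half-lives under 3 h lie before the first treated sample.

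At the fast end stood ZNF14 and ZNF296. ZNF14, a KRAB protein with 17 fingers, had an ERCC-scaled level of 5.069 and 4.199 CPM in the 2 siControl libraries at 0 h, 0.1409 and 0.07551 CPM at 3 h and 0.08045 and 0.1687 CPM at 6 h. The 0 h values stand far above both later times and the 3 h and 6 h values overlap. In siIGF2BP1 cells the same mRNA went from 5.709 and 4.377 CPM to 0.1366 and 0.0425 CPM at 6 h, resting on 6 and 2 reads. Its knockdown slopes were -7.31 (SE 1.1, adjusted p = 4.71e-06), -9.66 (SE 1.3, adjusted p = 6.94e-07) and -5.75 (SE 1, adjusted p = 2.79e-05), and its half-lives 0.747, 0.740, 0.635 and 0.801 h from siControl to siIGF2BP3. ZNF296, with 6 fingers and no KRAB motif, had half-lives of 0.766, 0.745, 0.741 and 0.795 h, and 3 to 15 reads in each library at 6 h. At so few reads the size of these slopes is loosely fixed, although both mRNAs were far below their 0 h level in every treated library.

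ZNF574 is the best measured of the fastest 6. Its ERCC-scaled siControl level was 20.51 and 19.05 CPM at 0 h, 1.762 and 1.151 CPM at 3 h and 0.4827 and 0.7451 CPM at 6 h, with no overlap between times. The siIGF2BP2 libraries gave 22.4 and 20.17 CPM, then 1.236 and 1.491 CPM, then 0.5732 and 1.038 CPM. Slopes of -4.78, -5.00 and -4.99 in the 3 knockdowns and half-lives of 0.957, 1.00, 0.949 and 0.969 h followed. ZNF57 (slopes of -5.19, -6.76 and -5.38), ZNF627 (-5.65, -4.64 and -6.01) and ZNF416 (-6.06, -4.58 and -3.69) complete the fast set, all KRAB genes. For ZNF57, 75.19% of exon bases overlap an annotated gene on the opposite strand.

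ZNF358 was the exception at the slow end. This gene has 9 fingers and no KRAB motif, and its ERCC-scaled siControl level was 10.73 and 11.02 CPM at 0 h, 13.39 and 12.46 CPM at 3 h and 12.03 and 9.883 CPM at 6 h. Levels at 0 and 6 h overlap. ZNF358 shares 20.07% of its exon bases with other annotated genes on the same strand and 14.07% on the opposite strand. Its knockdown slopes were -0.06, 0.10 and 0.24 (adjusted p = 0.752, 0.587 and 0.208), and its change over the first 3 h in siIGF2BP3 cells was a rise of 0.39 (adjusted p = 0.00881), the only early rise among the members, where 1.79% of tested genes rose. ZNF428, with 1 finger, was next, with slopes of -0.34, -0.28 and -0.31, of which the middle one missed the threshold (adjusted p = 0.05003). Its half-lives were 15.4, 26.3, 20.7 and 42.7 h. Opposite-strand genes overlap 32.07% of the exon bases of ZNF428 and 24.64% of those of ZNF460. Same-strand genes overlap 18.32% of those of ZNF738, while ZNF875 and ZNF528 have no overlap on either strand. The slopes of ZNF460 (-0.76, -0.52 and -0.42), ZNF875 (-0.85, -0.49 and -0.50), ZNF528 (-1.06, -0.54 and -0.44) and ZNF738 (-0.37, -0.89 and -0.61) were also small, those of ZNF528 in siIGF2BP3 (adjusted p = 0.109) and ZNF738 in siIGF2BP1 cells (adjusted p = 0.206) missing the threshold. On the TMM scale, where the typical mRNA is set near no change, at least 1 slope of each of ZNF428, ZNF460, ZNF875, ZNF528 and ZNF738 turned positive. There ZNF358 passed the test as a rise in all 3 knockdowns, by 0.61, 0.77 and 0.88 (adjusted p = 0.00425, 0.000673 and 0.000225), and ZNF428 did so by 0.34, 0.40 and 0.33 (adjusted p = 0.0158 in siIGF2BP2 cells).

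The members with the most RNA per length included slow and fast ones. ZNF146, which codes for a protein made almost only of zinc fingers, led at 17.85 CPM per kb of exon in the knockdowns at 0 h, followed by ZNF787 (10.44), ZNF114 (7.574), ZNF428 (7.55) and ZNF317 (6.533 CPM per kb). The ERCC-scaled siControl level of ZNF146 was 103.6 and 86.26 CPM at 0 h, 32.02 and 31.79 CPM at 3 h and 12.94 and 13.75 CPM at 6 h, each time apart from the others. Its knockdown slopes were -2.66, -2.49 and -2.50 and its half-lives 2.01, 2.13, 2.14 and 2.34 h. ZNF317 was lost faster (slopes of -3.38, -3.31 and -3.39), as was ZNF114 (-4.07, -3.97 and -4.03). Across members the level at 0 h in the knockdowns on a log scale and the mean slope had a Spearman coefficient of 0.060, a description over 191 genes that share libraries and depth.

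Members of known role had slopes from -0.55 to -3.94. ZNF91, which represses SVA retrotransposons, was slow for a member, with slopes of -1.18, -1.03 and -1.22 and half-lives of 4.86, 4.15, 4.17 and 3.99 h. Among all tested genes it ranked at 33.6% from the fast end. ZNF224, a KRAB repressor first described on the aldolase A promoter, was slower still (-0.86, -0.75 and -0.55). Opposite-strand genes overlap 42.43% of the exon bases of ZNF224. ZNF331, an imprinted gene, had slopes of -1.33, -1.22 and -1.07. The rest were lost faster: ZNF382, a candidate tumour suppressor, with -2.10, -2.15 and -2.38, ZNF473, which takes part in histone pre-mRNA processing, with -3.17, -3.25 and -3.16, and ZNF420, a regulator of p53, with -3.68, -3.26 and -3.76. ZNF274, which binds the ends of other zinc finger genes and recruits SETDB1 there, had slopes of -3.47, -3.94 and -3.62. Each of these slopes passed the test.

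The loss was concentrated in the first 3 h. From 0 to 3 h, 187 members fell in siIGF2BP1 cells (background 55.4%), 188 in siIGF2BP2 cells (67.2%) and 180 in siIGF2BP3 cells (56%), with median changes of -1.99, -2.01 and -2.02 against -0.37, -0.48 and -0.37 for all genes. In siControl, given as a description, the median was -2.12 against -0.44, and 187 members passed (background 61.3%). In the knockdowns, 197, 199 and 197 of 204 ZNF genes on other chromosomes also fell, with median changes of -1.44, -1.53 and -1.46. From 3 to 6 h the medians of the members shrank to -0.55 in siControl and -0.48, -0.40 and -0.47 in the knockdowns, against -0.42, -0.30, -0.21 and -0.26 for all genes. Over that second interval 97 members fell in siControl (50.8%, background 64.9%), 74 in siIGF2BP1 (38.7%, background 45.9%), 72 in siIGF2BP2 (37.7%, background 36.9%) and 79 in siIGF2BP3 cells (41.4%, background 41.6%), shares that lie below or within 1 percentage point of the background. The count depended on the scale: under TMM scaling 28, 31, 40 and 40 members fell from 3 to 6 h, where 24.1% to 26.3% of all genes did. It also moved with single libraries, to 62 without siControl 6 h replicate 2, to 42 in siIGF2BP1 without 3 h replicate 1, to 47 and 38 in siIGF2BP2 without 3 h replicate 2 or 6 h replicate 1, and to 49 in siIGF2BP3 without 6 h replicate 2. In siIGF2BP3 cells 1 member, ZNF416, rose from 3 to 6 h (1.24, adjusted p = 0.0461), where 0.48% of tested genes did.

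A test of the difference between the intervals, added after these values were seen, asked whether the log2 change from 3 to 6 h was less negative than that from 0 to 3 h. It called slowing for 109 members in siIGF2BP1 cells (background 10.8%), 135 in siIGF2BP2 cells (17.8%) and 111 in siIGF2BP3 cells (11.3%). The course was not particular to chromosome 19. Among 204 ZNF genes on other chromosomes the test called 103 (50.5%), 138 (67.6%) and 103 (50.5%), against 57.1%, 70.7% and 58.1% of members. In siIGF2BP3 cells 1 member passed in the other direction (background 0.807%). In siControl 106 members passed (10.9%), given as a description. Median differences were 1.46, 1.34, 1.47 and 1.37 from siControl to siIGF2BP3, against -0.03, 0.04, 0.24 and 0.08 for all genes. The counts under TMM scaling were 117, 106, 117 and 106, with backgrounds of 13.5%, 12.1%, 12.3% and 11.6%. Without siIGF2BP1 3 h replicate 2 the siIGF2BP1 count was 66, and without siIGF2BP3 3 h replicate 1 the siIGF2BP3 count was 68.

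Both kinds of course occurred among well measured members. ZNF317 changed by -2.76, -2.73, -2.78 and -2.85 over the first 3 h and by -0.93, -0.56, -0.46 and -0.45 over the next 3 h, a slowing of 1.83 to 2.40 (adjusted p = 5.8e-12, 4.7e-16, 1.1e-20 and 1.0e-19). Its ERCC-scaled siIGF2BP3 levels were 39.28 and 42.2 CPM, then 6.439 and 4.656 CPM, then 3.782 and 4.556 CPM. ZNF473 slowed in the same manner, by 1.77, 1.26, 1.77 and 2.31. ZNF787 passed the slowing test in no condition. It changed by -1.22, -1.12, -1.32 and -0.93 over the first interval and by -1.54, -1.43, -1.34 and -1.41 over the second. The second change was the larger in each condition, and a missed call does not show a constant rate. The siControl level of ZNF787 was 47.97 and 42.03 CPM, then 19.05 and 19.44 CPM, then 7.469 and 5.722 CPM on the ERCC scale, with the 3 times well apart. ZNF146 stood close to it, with slowing of 0.31, 0.31, 0.65 and 0.14, of which the siIGF2BP2 value passed the test (adjusted p = 0.0016).

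**Figure D3:**
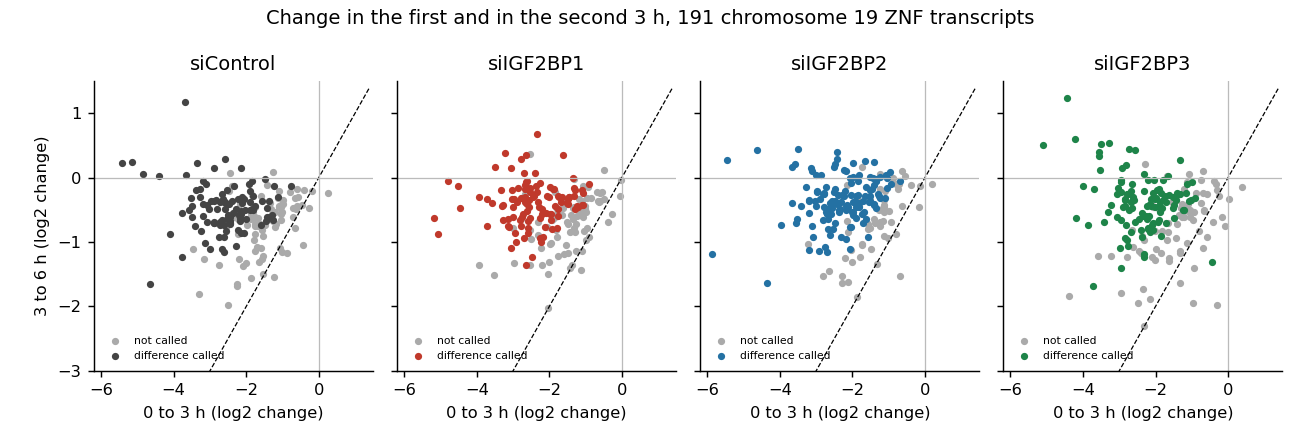
Log2 change from 0 to 3 h (x axis) and from 3 to 6 h (y axis) of the 191 members on the ERCC scale, 1 panel per condition. Coloured points are members whose difference between the intervals passed the test in either direction, grey points the rest, and the dashed line marks equal change. Most points lie above the line, with 106, 109, 135 and 111 members called as slowing.

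Features that the choice did not use followed the loss only loosely. Members with and without a KRAB motif had median mean slopes of -2.65 and -2.55 over the knockdowns. The 12 members with at most 5 fingers had a median of -1.81, the 51 with 6 to 10 fingers -2.71, the 84 with 11 to 15 fingers -2.72 and the 44 with 16 or more -2.51. Members with GC3 over 60% (24, of which 18 without KRAB motif) had a median of -2.71 and those under 50% (155, of which 143 with KRAB motif) -2.62, whereas all tested coding genes over 60% had a median of -0.55 (5373 genes) and under 50% of -0.81 (4209 genes). Across members, the Spearman coefficient with mean knockdown slope was 0.28 for the total length of annotated exons, 0.11 for the number of ATTTA pentamers after the stop codon, and -0.071 for GC3. These are descriptions over 191 genes measured in the same libraries.

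Along the chromosome the members fell into 16 runs when a gap of more than 1 Mb between starts parted them, and each run of 3 or more genes had a median below the -0.68 of all tested genes. The 20 members between 11.48 and 12.64 Mb had a median mean slope of -3.14 and the 47 members of the last run, toward the end of the long arm, -3.03. The lowest rates among runs of 5 or more were in the 18-gene run that ends with ZNF296 (-2.18) and the 13-gene run that holds ZNF358 (-2.25). Medians of the 2 other large runs were -2.48 (22 members) and -2.63 (31 members). Within a run single members varied more than the run medians did, as ZNF296 at -7.01 and ZNF428 at -0.31 in the same run show.

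**Figure D4:**
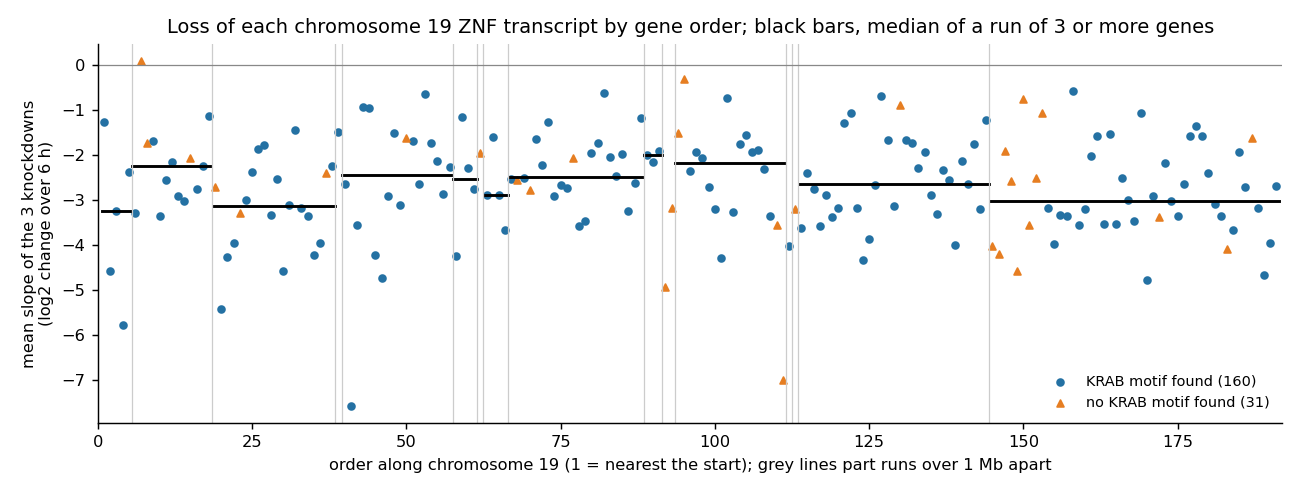
Mean slope over the 3 knockdowns (y axis, log2 change over 6 h, ERCC scale) of each of the 191 members in their order along chromosome 19 (x axis). Circles mark members with a KRAB motif and triangles those without, grey lines part runs more than 1 Mb apart, and black bars are medians of runs of 3 or more genes. Run medians lie between -3.24 and -2.003, and ZNF358 is the only member above 0.

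Reads from near-identical stretches can be shared between genes. Of the 100-base windows of their transcripts, taken every 25 bases, 141 members had none that occurs elsewhere in the genome. In 10 members at least 5% did, ZNF417 having the most (19.57%). Exon overlap of more than 20% with another gene affected 11 members on the same strand and 13 on the opposite strand. The 169 members with little overlap had a median mean slope of -2.64, equal to that of all 191.

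No member passed the test for a different loss in a knockdown than in siControl. The difference in slope from siControl passed the test for 0 members in each knockdown by edgeR and by DESeq2, where 0.0152%, 0% and 0.0228% of all genes did by edgeR, and 1, 1 and 2 members had an unadjusted p under 0.05 by edgeR. The siControl 0 h libraries used for the choice enter this difference, so the values are descriptive: the median slope difference was 0.11 for siIGF2BP1, 0.21 for siIGF2BP2 and 0.14 for siIGF2BP3, against 0.19, 0.17 and 0.22 for all genes. Single differences ran from -3.62 to 1.99. The spread in this test also holds departure from the straight line, and slowing was called for 106 to 135 members. With that spread, 2 libraries per group and almost no calls among all genes, 0 calls do not show equal loss.

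Levels after actinomycin D were compared between each knockdown and siControl over the 3 h and 6 h libraries, which the choice did not use, on the TMM scale. siIGF2BP1 cells differed for 27 members (14.1%, background 34.9%), 18 higher and 9 lower where 18.3% and 16.6% of tested genes were. For siIGF2BP2 cells the count was 26 (13.6%, background 29.1%), 20 higher and 6 lower (background 13.4% and 15.7%), and for siIGF2BP3 cells 12 (6.28%, background 28.8%), 8 higher and 4 lower (background 14% and 14.8%). The members' median differences were 0.03, 0.06 and 0.05. On the ERCC scale, which moves the median of all genes by 0.11, 0.17 and 0.23, the splits became 27 higher and 5 lower, 46 higher and 2 lower, and 64 higher and 1 lower. The share of all genes called on that scale is not given here, so these splits cannot be told apart from that shift. The siIGF2BP1 count fell to 16 without siControl 6 h replicate 2 and to 14 without siIGF2BP1 3 h replicate 1, and the siIGF2BP3 count was 19 or 20 without siIGF2BP3 replicate 1 of 3 h or of 6 h. The 3 comparisons share their siControl libraries.

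ZNF480 rose after siIGF2BP1. At 3 h it was at 5.008 and 4.695 CPM in siControl and 6.449 and 6.724 CPM in siIGF2BP1 cells, and at 6 h at 3.293 and 3.237 against 5.527 and 4.456 CPM, so the groups did not overlap at either time. The difference was 0.52 on the log2 scale (SE 0.093, adjusted p = 2.1e-05), and 0.43 in siIGF2BP2 (adjusted p = 2.7e-04) and 0.24 in siIGF2BP3 cells (adjusted p = 0.0588). The 2 other largest rises were ZNF347 (0.74, adjusted p = 0.0396) and ZNF446 (0.70, adjusted p = 0.0336). Leaving out single libraries or dropping the filter ended these 2 calls in 6 and 5 of 16 alternatives (adjusted p up to 0.171 and 0.177).

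ZNF324B fell the most after siIGF2BP1. At 0 h it was at 1.814 and 2.357 CPM in siControl and 2.434 and 1.532 CPM in siIGF2BP1 cells, which overlap. At 3 h the values were 0.761 and 0.6933 CPM against 0.02271 and 0.1446 CPM, and at 6 h 0.5322 and 0.2619 against 0.05189 and 0.1224 CPM, with no overlap. The fitted difference was -2.64 (SE 0.46, adjusted p = 1.7e-05), from 1, 6, 2 and 5 reads in the siIGF2BP1 libraries, and 11.21% of the 100-base windows of ZNF324B occur elsewhere in the genome. In siIGF2BP3 cells the difference was -1.14 (adjusted p = 0.026), and in siIGF2BP2 cells the difference was -0.59 (adjusted p = 0.19). ZNF599 (-0.72, adjusted p = 0.0095) and ZNF180 (-0.61, adjusted p = 0.0159) also fell in siIGF2BP1 cells, calls that leaving out single libraries ended in 3 and 4 of 16 alternatives (adjusted p up to 0.0927 and 0.209). The siIGF2BP3 call of ZNF324B was lost in 4 (adjusted p up to 0.232).

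ZNF614 and ZNF274 fell after siIGF2BP2. ZNF614 was at 7.93 and 7.508 CPM at 3 h in siControl against 5.4 and 6.627 CPM, and at 5.09 and 5.744 against 2.981 and 3.639 CPM at 6 h, a difference of -0.56 (SE 0.09, adjusted p = 4.9e-06) with no overlap at either time. In siIGF2BP1 cells the difference was -0.25 (adjusted p = 0.0272). For ZNF274 the 3 h values were 3.732 and 4.318 CPM in siControl and 3.22 and 3.029 CPM in siIGF2BP2 cells, and those at 6 h 1.913 and 2.563 against 1.789 and 1.365 CPM, a difference of -0.48 (SE 0.12, adjusted p = 0.00165). ZNF57 fell by 0.75 (adjusted p = 0.0388). The largest rises were ZNF416 (1.37, adjusted p = 0.0093), ZNF100 (1.02, adjusted p = 0.0272) and ZNF486 (1.00, adjusted p = 0.048), all under 1 CPM in every treated siControl library. Of 16 alternatives, 7 ended the call of ZNF57, 1 that of ZNF416 (without siIGF2BP2 6 h replicate 2), 4 that of ZNF100 and 10 that of ZNF486 (adjusted p up to 0.216, 0.234, 0.231 and 0.207).

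ZNF714 was higher in all 3 knockdowns. At 3 h siControl stood at 11.78 and 10.93 CPM, siIGF2BP1 at 14.67 and 14.53, siIGF2BP2 at 15.63 and 15.13 and siIGF2BP3 at 15.15 and 16.45 CPM. At 6 h the values were 8.765 and 8.887, 11.23 and 10.09, 13.17 and 12.76, and 11.75 and 12.5 CPM in the same order. The siControl libraries were below all knockdown libraries at both times, and the differences were 0.31 (adjusted p = 2.6e-04), 0.46 (adjusted p = 5.2e-07) and 0.44 (SE 0.067, adjusted p = 2.6e-06). Its own loss was slow for a member, with half-lives of 3.18, 3.17, 3.29 and 2.89 h, although it ranked at 22.7% from the fast end of all tested genes. ZNF347 was also higher in each, by 0.74, 0.73 and 1.11 (adjusted p = 0.0396, 0.0393 and 0.00174), at 0.2329 to 1.003 CPM in the treated siControl and siIGF2BP3 libraries.

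ZNF548 rose after siIGF2BP3, from 3.191 and 2.417 CPM in siControl to 4.259 and 5.115 CPM at 3 h and from 3.243 and 3.162 to 4.032 and 4.616 CPM at 6 h. The groups did not overlap, and the difference was 0.55 (SE 0.11, adjusted p = 1.9e-04). ZNF836 (-1.12, adjusted p = 0.0469) and ZNF155 (-0.94, adjusted p = 0.033) were lower as well, calls that were lost in 9 and 6 of the 15 alternatives with an adjusted p, ERCC scaling among them (adjusted p up to 0.323 and 0.292), and for which DESeq2 gave none. ZNF91 was higher by 0.28, 0.23 and 0.20 in the 3 knockdowns (adjusted p = 1.8e-04, 0.00132 and 0.00948). ZNF331 was higher in siIGF2BP2 (0.25, adjusted p = 0.00767) and siIGF2BP3 cells (0.34, adjusted p = 5.1e-04).

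**Figure D5:**
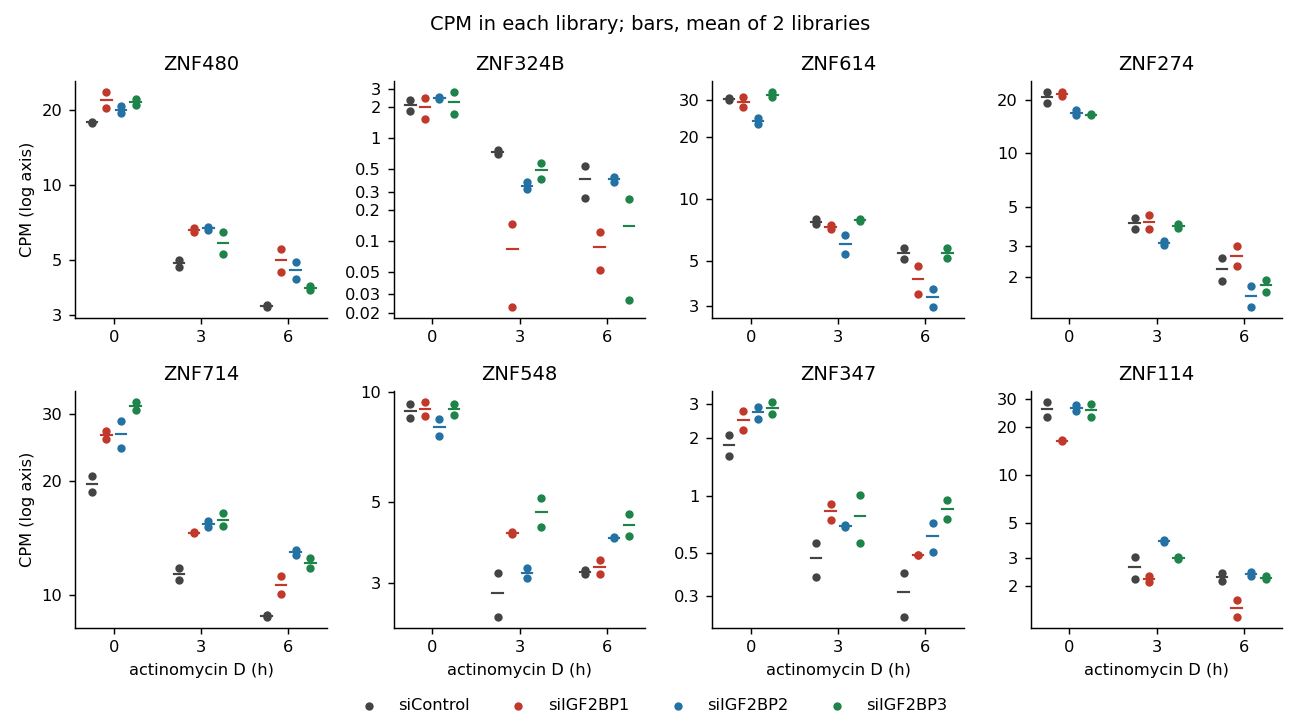
CPM in each library (points, log axes that differ between panels) and mean of 2 libraries (bars) for 8 members against hours of actinomycin D, by siRNA. Treated siControl points of ZNF480 and ZNF714 lie below those of every knockdown, siIGF2BP1 points of ZNF324B lie below siControl at 3 and 6 h, and ZNF114 is low at 0 h in siIGF2BP1 libraries.

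Between the knockdowns at 0 h few members differed. siIGF2BP1 and siIGF2BP2 cells differed for 9 members (background 18.7%, 5 higher with a background of 9.65% and 4 lower with 9.04%), siIGF2BP1 and siIGF2BP3 for 3 (background 14.3%, 1 higher with a background of 8.31% and 2 lower with 6%) and siIGF2BP2 and siIGF2BP3 for 2 (background 9.19%), both lower (background 4.28% lower and 4.91% higher). On the ERCC scale the splits of higher and lower became 0 and 4, 0 and 2, and 0 and 1, with no share of all genes given on that scale. Leaving out any 1 of the 4 libraries lowered the first count to between 1 and 3, and the second to 1. Without replicate 2 of either arm the last count was 1. ZNF114 was lower in siIGF2BP1 cells, at 16.32 and 16.55 CPM, than in siIGF2BP2 (25.3 and 27.6 CPM) and siIGF2BP3 cells (27.89 and 23.3 CPM), with differences of -0.67 (adjusted p = 1.8e-05) and -0.63 (adjusted p = 9.4e-05). In siControl it was at 23.23 and 28.87 CPM. ZNF460 (0.41 against siIGF2BP2, adjusted p = 0.0156) and ZNF274 (0.39 against siIGF2BP3, adjusted p = 0.0188) were higher in siIGF2BP1 cells, and ZNF614 was lower in siIGF2BP2 than in siIGF2BP3 cells (-0.42, adjusted p = 0.00276). Those 3 calls were lost in 4, 5 and 2 of 16 alternatives (adjusted p up to 0.304, 0.211 and 0.0624). Against siControl at 0 h, a contrast that used the choosing libraries, the median differences were 0.07, 0.02 and 0.02.

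The mRNAs of the proteins that KRAB zinc finger proteins work with had median slopes nearer to those of all genes than to those of the members. All 27 genes of a list of silencing partners were tested, and 24, 25 and 24 fell over 6 h in the 3 knockdowns (background 69.1%, 71.3% and 67.2%). Their median slopes were -0.68, -0.87 and -0.77, against -0.69, -0.71 and -0.65 for all genes. TRIM28, the KRAB corepressor, had slopes of -0.34, -0.34 and -0.30, and DNMT1, the maintenance DNA methyltransferase, -0.20, -0.23 and -0.20. SETDB1, which trimethylates histone H3 at lysine 9, was lost faster (-1.75, -1.89 and -1.86). TRIM24, a relative of TRIM28, was lost at a rate in the range of the members (-3.07, -3.12 and -3.07), as was MORC3 (-3.129, -3.088 and -3.025). Slowing was called for 1, 4 and 1 of the 27 in the knockdowns (background 10.8%, 17.8% and 11.3%). After actinomycin D, 14, 13 and 10 of the 27 differed from siControl (background 34.9%, 29.1% and 28.8%). Of these, 9, 8 and 10 were higher (background 18.3%, 13.4% and 14%), among them in each knockdown DNMT3B (0.61, 0.22 and 0.20) and MORC3 (0.35, 0.32 and 0.46).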

How the data were processed

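Poly(A)-selected RNA with ERCC spike-in was sequenced as single-end 100-base reads from HepG2 cells in 12 groups of 2 libraries. Per the labels, the submitters' processing notes and the study's methods, the authors trimmed with Trimmomatic 0.39, aligned with HISAT2 2.1.0 to hg38 and counted with HTSeq on GENCODE 29. The deposited values are raw counts per gene. Their 5 summary rows, equal to 13.55 to 17.06% of reads, were left out: reads aligned to several places (3.591 to 4.053%) or shared by overlapping genes (4.67 to 5.627%) were not counted. Libraries of METTL1 knockdown were not analysed here.

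Symbols, exons and coding sequences came from GENCODE 44. Of the gene IDs, 58207 matched a symbol, 469 did not and 45 rows of the Y pseudoautosomal region were dropped. Fingers, KRAB motifs and linkers were searched in the translated canonical coding sequence, in place of the RefSeq proteins planned.

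Genes with at least 1 CPM in at least 2 libraries were tested with edgeR 4.0.16 (R 4.3.3) by quasi-likelihood, adjusted over all 13136 genes at 0.05. Slopes used a straight line per condition (16 residual degrees of freedom) and intervals used group means (12 residual degrees of freedom), both scaled by ERCC totals. The residual spread of the slope fits holds departure from the line as well as differences between libraries. Levels between siRNAs used group means with TMM. ERCC-scaled CPM divides counts by the library's ERCC total relative to the mean and by mean gene reads. A half-life is ln 2 over the mean of the decay constants at 3 and 6 h. Alternatives were DESeq2 1.42.0, other scalings, no filter, the replicate block and leaving out each library. Replicate numbers are shared between groups but mark no stated batch.

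Members, gene lists and tests were chosen with earlier results of these data known, and the slowing test after its values were seen. Named members were the 6 fastest and 6 slowest by mean knockdown slope (at least 2 CPM), the 5 highest per kb, up to 3 called rises and falls per knockdown, the largest differences between knockdowns, the extremes of finger number, members near the minimum and members of known role. The tests were checked on simulated counts with mostly straight-line loss and a fixed spread. That check does not cover slope tests under slowing of the kind seen in the members.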

Additional observations from a re-analysis of the deposited data

How the results depend on the processing

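Every count of falling or slowing members over 0 to 6 h, 0 to 3 h and between intervals stayed within 1.5 times its value under TMM, library size scaling, DESeq2 and the replicate block. With no filter the counts of falling members did so too, and the slowing test was not run in that setting. The fall from 3 to 6 h was the scale-dependent one: TMM gave 28, 31, 40 and 40 members from siControl to siIGF2BP3, and library size 45 in siControl and 48 in siIGF2BP1. The share of all genes under library size is not given here, so the library size counts are not read as a result about the members. Median member slopes were -1.91, -1.98, -1.82 and -2.03 under TMM (all genes -0.02, -0.01, -0.04 and -0.01) and -2.23, -2.29, -2.10 and -2.32 under library size (all genes -0.34, -0.31, -0.32 and -0.30). ERCC scaling gave 48 and 65 members for siIGF2BP2 and siIGF2BP3 against siControl after actinomycin D, and 4 and 1 for siIGF2BP1 and siIGF2BP3 against siIGF2BP2 at 0 h. These counts stand without the share of all genes on that scale and are not read as a result about the members. Without the filter 1 slope difference was called in siIGF2BP2. Slopes that had passed the test and turned under TMM were ZNF428 0.34 (siIGF2BP1) and 0.33 (siIGF2BP3), ZNF460 0.15 (siIGF2BP2) and 0.22 (siIGF2BP3), ZNF528 0.12 and ZNF875 0.18 (siIGF2BP2), ZNF875 0.14 and ZNF738 0.028 (siIGF2BP3), and under library size ZNF428 0.033 (siIGF2BP1) and 0.036 (siIGF2BP3). Of the named slopes that had not passed, TMM also turned ZNF428 (0.40, siIGF2BP2), ZNF738 (0.30, siIGF2BP1), ZNF528 (0.21, siIGF2BP3) and ZNF358 (0.61, siIGF2BP1). Beyond the scaling itself, the cause was not tested.

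Leaving out 1 library gave, from siControl to siIGF2BP3, 188 to 190, 184 to 189, 182 to 189 and 179 to 188 falling over 6 h, 177 to 187, 179 to 187, 180 to 188 and 172 to 181 over 0 to 3 h, 62 to 109, 42 to 73, 38 to 71 and 49 to 79 over 3 to 6 h, and 73 to 110, 66 to 104, 100 to 137 and 68 to 106 slowing. Against siControl after actinomycin D the counts were 14 to 27, 18 to 26 and 9 to 20, between knockdowns at 0 h 1 to 9, 1 to 3 and 1 to 3, and for slope differences 0 throughout. Of the 18 named differences from siControl, 7 kept their call under all 16 alternatives (ZNF324B and ZNF480 in siIGF2BP1, ZNF614 and ZNF274 in siIGF2BP2, ZNF714, ZNF548 and ZNF347 in siIGF2BP3), while ZNF486 lost it in 10, and ZNF836 in 9 and ZNF155 in 6 of the 15 that gave an adjusted p. Of the 5 named differences between knockdowns, the 2 of ZNF114 kept theirs. With the replicate block, 190, 189, 189 and 187 members fell over 6 h and 28, 31 and 13 differed from siControl after actinomycin D. Deviations of same-numbered libraries correlated at -0.044 to 0.217 over 66 pairs of groups (median 0.005, 5 above 0.1), so the numbers were not taken as pairs. Depth limits the members at 6 h, where the middle member had 46.5 to 78 reads.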
